A study of Arabidopsis thaliana with 20 samples.

Results

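Plasma membrane intrinsic proteins (PIPs) are the aquaporins of the plant cell surface, and 10 of their genes were followed here in roots of grafted Arabidopsis thaliana, out of 32833 gene codes in the deposited count table. They were taken as a fixed list of gene codes, drawn up with earlier results of these data known: PIP1-1 (AT3G61430), PIP1-2 (AT2G45960), PIP1-3 (AT1G01620), PIP1-4 (AT4G00430), PIP1-5 (AT4G23400), PIP2-1 (AT3G53420), PIP2-2 (AT2G37170), PIP2-4 (AT5G60660), PIP2-5 (AT3G54820) and PIP2-7 (AT4G35100). All 10 passed the filter on low counts. Each graft joined a shoot to a root, and either organ was Col-0 wild type (WT) or cpd, a mutant in the CPD gene, which encodes a cytochrome P450 of brassinosteroid synthesis. The 4 groups are named shoot first: WT/WT and cpd/cpd joined organs of the same genotype, WT/cpd and cpd/WT were the reciprocal grafts, and each had 5 libraries, each made from a pool of 3 whole roots. The titles of the cpd/cpd samples lack the word for grafting that the others carry, so a difference in grafting, if there was one, cannot be told apart from genotype wherever cpd/cpd is used. The labels do not say that the pools came from separate plates or days, so a p-value here reflects how far these pools varied, and they give neither the age of the plants nor the cpd allele.

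Aquaporins let water cross a membrane along its gradient, and PIPs carry much of the water that moves from cell to cell through a root. The family has a PIP1 and a PIP2 branch: PIP2 proteins form water channels on their own, while PIP1 proteins largely depend on assembly with PIP2 partners to reach the cell surface in active form. Each PIP carries a pair of Asn-Pro-Ala motifs that line the pore. In Arabidopsis roots, PIP1-2, PIP2-1 and PIP2-2 are known contributors to hydraulic conductivity. Brassinosteroids are steroid hormones of cell elongation.

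The coding sequence around the second Asn-Pro-Ala motif shows how close the 10 genes are and where their transcripts can be told apart. Each stretch below has 36 bases on the coding strand, read 5′ to 3′ from RefSeq's TAIR10.1 assembly, with the codons of the motif in capitals.
PIP1-1, chr3:22734846-22734881, plus strand: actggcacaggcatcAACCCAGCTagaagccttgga
PIP1-2, chr2:18911442-18911477, plus strand: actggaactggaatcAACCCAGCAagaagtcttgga
PIP1-3, chr1:226213-226248, minus strand: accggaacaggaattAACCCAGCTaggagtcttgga
PIP1-4, chr4:186375-186410, minus strand: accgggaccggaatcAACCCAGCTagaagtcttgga
PIP1-5, chr4:12221849-12221884, plus strand: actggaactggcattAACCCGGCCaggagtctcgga
PIP2-1, chr3:19804158-19804193, minus strand: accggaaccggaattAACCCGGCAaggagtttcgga
PIP2-2, chr2:15613884-15613919, minus strand: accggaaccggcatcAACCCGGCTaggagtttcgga
PIP2-4, chr5:24375942-24375977, minus strand: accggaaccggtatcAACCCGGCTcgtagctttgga
PIP2-5, chr3:20303452-20303487, plus strand: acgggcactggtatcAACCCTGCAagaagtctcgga
PIP2-7, chr4:16709668-16709703, plus strand: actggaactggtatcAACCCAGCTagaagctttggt

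All 10 stretches were different, and 23 of their 36 positions were identical in all of them. Over whole coding sequences, identity after alignment was 79.8% to 87.6% between PIP1 genes, 73.0% to 86.4% between PIP2 genes and 70.6% to 75.9% between the branches. Each gene had 4 coding exons, and no annotated gene overlapped the exons of any of them. The longest transcripts of 9 of the 10 genes shared no 75-base stretch with the longest transcript of any other PIP gene.

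The exception was PIP2-2, which has a near copy in PIP2-3 (AT2G37180), one of the 3 further PIP2 genes. Their whole coding sequences have 858 bases each and are 94.8% identical, with 45 differing bases, and 192 of the 1271 stretches of 75 bases in PIP2-2 exons (15.1%) also occur in PIP2-3. The first 90 coding bases of both follow, with the 10 bases that differ in capitals.
PIP2-2, chr2:15614702-15614791, minus strand: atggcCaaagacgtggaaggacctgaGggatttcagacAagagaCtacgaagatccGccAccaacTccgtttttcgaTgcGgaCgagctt
PIP2-3, chr2:15617779-15617868, plus strand: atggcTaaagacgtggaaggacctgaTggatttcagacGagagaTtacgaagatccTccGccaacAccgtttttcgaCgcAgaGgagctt

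How the authors' counting treated reads that match both genes is not given in the sources used here, so the split of counts between PIP2-2 and PIP2-3 is uncertain. The gene bodies lie at chr2:15613368-15615022 and chr2:15617635-15619155 in TAIR10.1.

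Library totals ran from 13417029 to 32337043 counts, and the count of a PIP gene named above in a single library ran from 82 for PIP2-5 to 38022 for PIP2-1. CPD itself, the check of the labels, was at 34.1 to 51.7 CPM (counts scaled by library size) in the 10 libraries with a WT root and at 2.30 to 4.47 CPM in the 10 with a cpd root. A list of 12 photosynthesis genes is called shoot-tissue markers below. Whether their RNA came from shoot tissue or from the root itself was not tested. In WT/WT their means ran from 0.978 CPM for LHCB1.1 to 465.5 CPM for LHCB1.3. Their summed level ran from 845.6 to 1489 CPM in WT/WT and from 1095 to 2312 CPM for WT/cpd. It ran from 1408 to 2552 CPM for cpd/WT and from 1466 to 2779 CPM for cpd/cpd. The summed level of 9 endodermis markers ran from 323.5 to 525.6, 207.3 to 299.5, 290.2 to 375.7 and 182.5 to 321.6 CPM in the same order. Of the other markers, 0 of 3 for cortex and 0 of 4 for the root tip were called in the 6 comparisons. Among 7 markers of epidermis and root hair, only the root hair gene PRP3 was called against WT/WT. PRP3 was higher in cpd/cpd and both reciprocal grafts (log2 fold changes from 0.87 to 1.07, adjusted p from 0.0164 to 0.0362, edgeR). With a cpd root under a WT shoot, 3 of these 7 were positive and 4 negative. With a cpd shoot on a WT root, 4 were positive and 3 negative. Between whole grafts, 6 were positive and 1 negative. None of the listed markers of shoot tissue, endodermis, cortex, stele, epidermis or root tip was at 0 on average in any group. In whole-root RNA, fewer cells of a type and less RNA per cell cannot be told apart.

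The PIP genes were abundant. Together the 10 took 0.499% ± 0.0331 (SD, n = 5) of scaled counts in WT/WT. Their share was 0.468% ± 0.0494 in WT/cpd, 0.438% ± 0.0505 for a cpd shoot on a WT root, and 0.415% ± 0.0294 for cpd/cpd. As summed levels, the 5 PIP1 genes held 2801 ± 193 CPM in WT/WT and 2315 ± 208 in cpd/cpd. The 5 PIP2 genes held 2188 ± 142 CPM in WT/WT and 1835 ± 101 in cpd/cpd. The total over the 10 genes ran from 4703 to 5527 CPM in WT/WT and from 3958 to 4671 CPM in cpd/cpd, so these ranges did not overlap, whereas those of the other group pairs did.

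Levels between genes are compared per kilobase of exon. In WT/WT, PIP2-1 was first with 712 ± 94.0 CPM per kb (SD, n = 5) and PIP1-2 next with 700.6 ± 70.4, and their libraries overlapped. PIP1-3 followed with 537 ± 11.9 and PIP2-2 with 407 ± 29.5 CPM per kb, each clear of its neighbours above. PIP1-1 at 363 ± 45.1 CPM per kb overlapped both PIP2-2 above it and PIP2-7 below it, the latter at 283 ± 42.8 CPM per kb. Below them PIP1-5 at 117 ± 6.73, PIP1-4 at 64.95 ± 7.55, PIP2-4 at 41.2 ± 3.90 and PIP2-5 at 4.09 ± 1.24 CPM per kb were separate from each other. The order was the same in cpd/WT. In WT/cpd, PIP1-2 and PIP2-1 changed places, at 736 and 692 CPM per kb, and in cpd/cpd, PIP2-7 and PIP1-1 did, at 243 and 236 CPM per kb, but in each case the libraries of the pair overlapped.

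**Figure D1:**
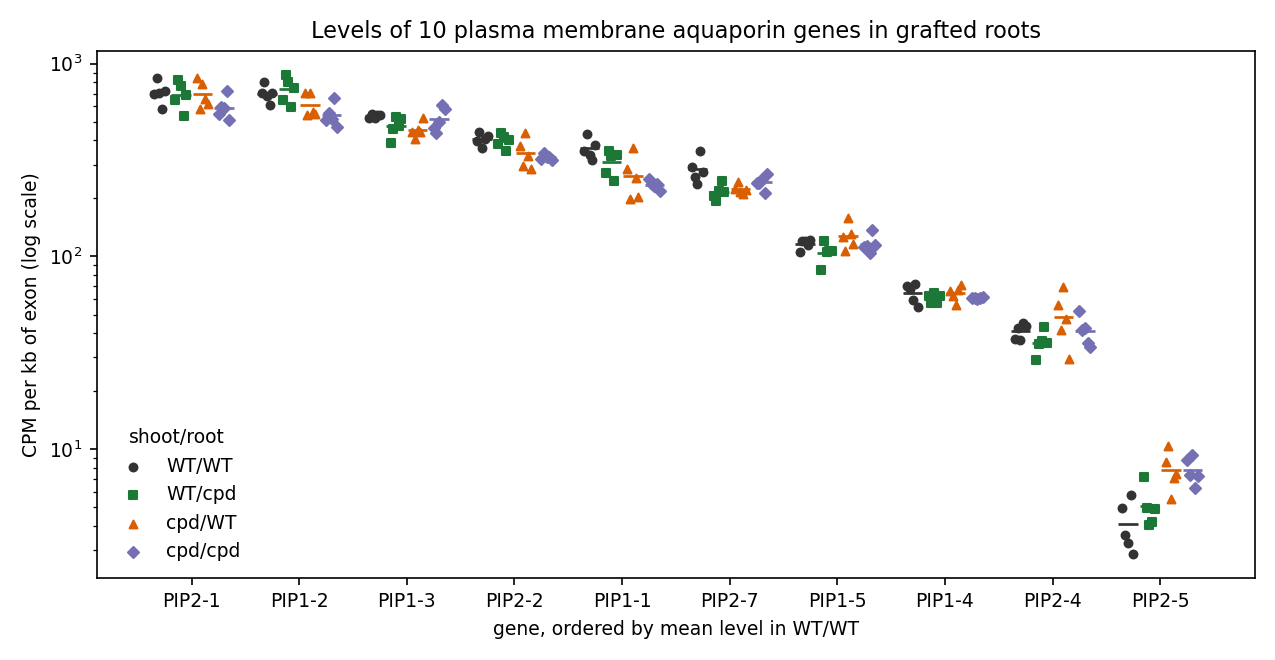
Level of each PIP gene in CPM per kb of exon (log axis) in each of the 20 libraries, with genes ordered by their mean in WT/WT; points are libraries, colours and shapes are the 4 groups, and short lines are group means. PIP2-5 sits lowest in all groups, with means from 4.09 to 7.82 CPM per kb, and the 9 others lie above it.

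PIP2-5 was the gene with the widest change, and it was higher under a cpd shoot. Arabidopsis PIP2-5 is known as a PIP gene whose transcript rises in leaves under drought, when most other PIP transcripts fall. Its levels in WT/WT were 8.86, 6.41, 5.81, 10.4 and 5.13 CPM in replicates 1 to 5. In WT/cpd they were 12.9, 8.83, 7.22, 7.52 and 8.76 CPM. In these 2 groups with a WT shoot only replicate 4 of WT/WT and replicate 1 of WT/cpd were above 10 CPM. In cpd/WT the levels were 15.4, 18.6, 9.89, 12.7 and 13.3 CPM. In cpd/cpd they were 15.8, 13.2, 16.6, 11.3 and 13.02 CPM. Under a cpd shoot, all libraries but replicate 3 of cpd/WT were above 10 CPM. WT/WT and cpd/cpd did not overlap, and the other pairs of groups did.

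On a WT root, a cpd shoot raised PIP2-5 from a mean of 7.32 ± 2.21 to 13.98 ± 3.24 CPM (SD, n = 5), a log2 fold change of 0.93 ± 0.20 (SE, adjusted p = 0.0104, edgeR's quasi-likelihood test). Between whole grafts the log2 fold change was 0.93 ± 0.20 (adjusted p = 0.00948, edgeR). Both comparisons use the WT/WT libraries. On a cpd root, the mean was 9.05 ± 2.27 CPM under a WT shoot and 13.99 ± 2.21 CPM under a cpd shoot, and the log2 fold change of 0.64 ± 0.20 did not pass (adjusted p = 0.0661, edgeR), with a 95% interval of 0.23 to 1.06. It passed without replicate 4 of WT/WT or without replicate 1 of WT/cpd (adjusted p from 0.0390 to 0.0441, edgeR), and DESeq2 and limma-voom gave adjusted p of 0.0295 and 0.00226. The shoot effects on the 2 root genotypes differed by -0.28 ± 0.28 on the log2 scale (interaction, adjusted p = 0.567, edgeR), with a 95% interval of -0.88 to 0.31.

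PIP2-7 had its highest mean in WT/WT, and a cpd root or a cpd shoot alone lowered it. In Arabidopsis its protein is known to be carried to the cell surface with the help of the SNARE proteins SYP61 and SYP121. Its levels in WT/WT were 467, 416, 383, 563 and 439 CPM. In WT/cpd they were 330, 311, 352, 395 and 348 CPM. Only 1 library of WT/cpd, replicate 4, was above the lowest of WT/WT. In cpd/WT the levels were 361, 390, 345, 339 and 355 CPM. In cpd/cpd they were 384, 385, 403, 344 and 431 CPM. All pairs of groups overlapped, and cpd/cpd lay between WT/WT and the reciprocal grafts on average.

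A cpd root under a WT shoot lowered PIP2-7 from 454 ± 68.6 to 347 ± 31.1 CPM (SD, n = 5), a log2 fold change of -0.39 ± 0.09 (SE, adjusted p = 0.0132, edgeR). Without the other 2 groups in the fit the change was -0.38 and did not pass (adjusted p = 0.0613, edgeR). A cpd shoot on a WT root lowered it to 358 ± 19.8 CPM, a change of -0.34 ± 0.09 (adjusted p = 0.0281, edgeR), and this call was lost without any of 5 single libraries, replicates 1 and 4 of WT/WT and replicates 1, 3 and 4 of cpd/WT (adjusted p from 0.0504 to 0.0683, edgeR). The call for the cpd shoot was also lost with replicate number as a block and with only the groups compared (adjusted p = 0.0512 and 0.0617, edgeR). Both calls, for the root and for the shoot, rest on the same WT/WT libraries. In cpd/cpd, at 389 ± 31.5 CPM, PIP2-7 did not pass against any other group: the log2 differences were 0.12 against cpd/WT, 0.16 against WT/cpd and -0.22 against WT/WT, with adjusted p of 0.490, 0.314 and 0.164 (edgeR).

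The interaction of shoot and root genotype was called for PIP2-7, at 0.51 ± 0.13 on the log2 scale (SE, adjusted p = 0.0234, edgeR's quasi-likelihood test). It means that cpd/cpd was above the level that the separate effects of a cpd root and a cpd shoot would add up to. This call was lost without replicate 1 of WT/cpd or replicate 5 of cpd/cpd, at 0.45 to 0.47 with adjusted p from 0.0508 to 0.0554 (edgeR). Next to it, PIP1-3 had an interaction of 0.37 ± 0.14 that did not pass (adjusted p = 0.110, edgeR). PIP2-7 was the only one of the 10 PIP genes called, against 7.73% of all 20862 genes tested, 2.3% in the positive and 5.43% in the negative direction. All 9 endodermis markers had a positive interaction, with a median of 0.53, and 1 was called. All 12 shoot-tissue markers had a negative one, with a median of -0.64, and 2 were called. The part of these markers in the PIP2-7 interaction was not tested.

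**Figure D2:**
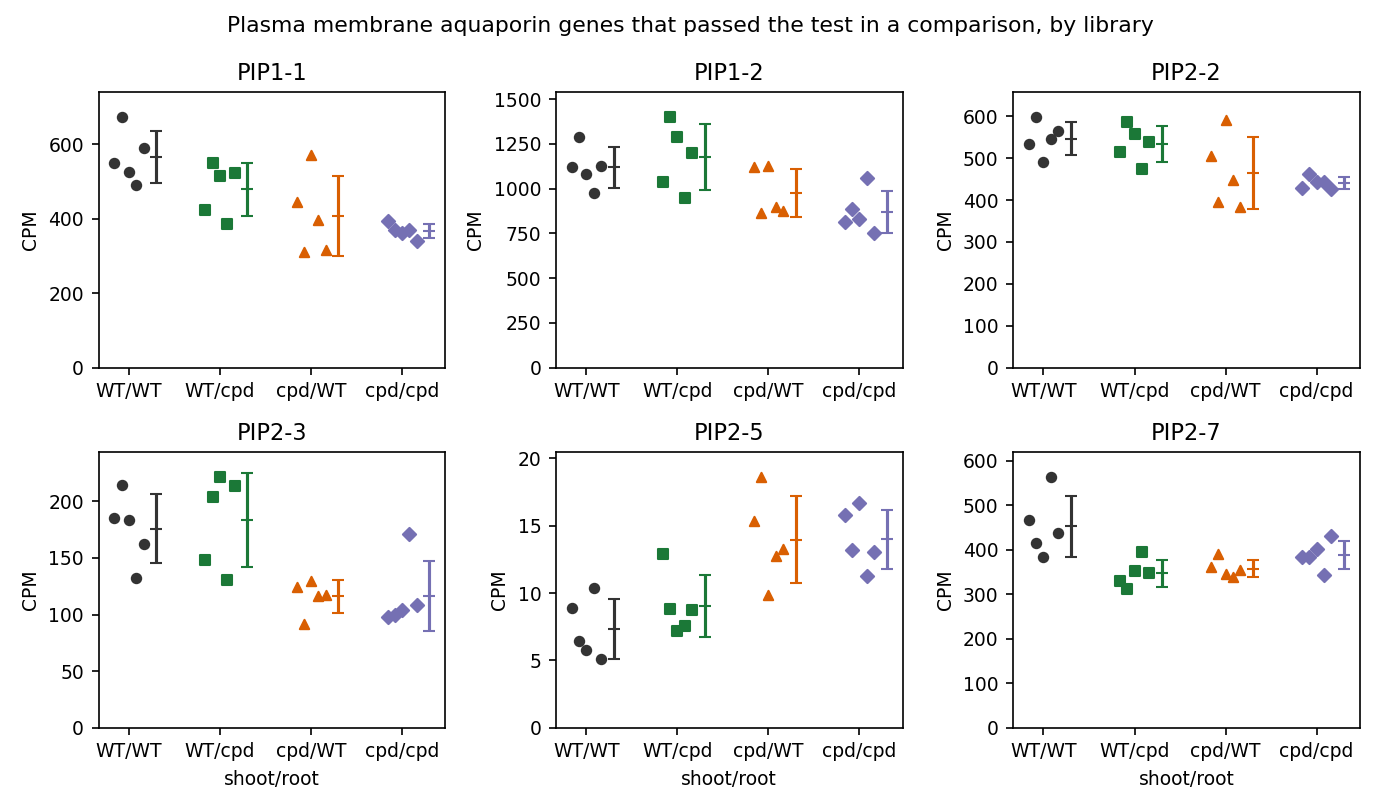
Level in CPM (axis from 0) of 6 PIP genes in each library, by graft group; points are the 5 libraries of a group, and the bar beside them is the group mean ± SD. PIP2-5 runs from 5.13 to 10.4 CPM in WT/WT and from 11.3 to 16.6 CPM in cpd/cpd, and PIP2-7 has its highest library, 563 CPM, in WT/WT.

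PIP1-1 was the PIP1 gene with the largest decrease, and it was lower under a cpd shoot. Its levels were 549, 673, 525, 490 and 589 CPM in WT/WT. They were 424, 550, 514, 385 and 522 CPM in WT/cpd. Replicate 4 of WT/cpd was the lowest library with a WT shoot. The levels were 444, 311, 570, 395 and 317 CPM in cpd/WT, and replicate 3 stood far above the other 4. They were 395, 370, 362, 368 and 341 CPM in cpd/cpd, all below the lowest WT/WT library.

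Between whole grafts PIP1-1 fell from 565.3 ± 70.2 to 367 ± 19.3 CPM (SD, n = 5), a log2 fold change of -0.62 ± 0.14 (SE, adjusted p = 0.0130, edgeR). A cpd shoot on a WT root lowered it to 408 ± 107 CPM, by -0.47 ± 0.14 on the log2 scale (adjusted p = 0.0407, edgeR). That call was lost without any of 11 single libraries: replicates 1, 2, 3 and 5 of WT/WT, 3 of WT/cpd, 1, 2, 4 and 5 of cpd/WT, and 3 and 5 of cpd/cpd (adjusted p from 0.0504 to 0.101, edgeR). It was also lost with no filter on low counts and with replicate number as a block (adjusted p = 0.0548 and 0.0549, edgeR). The same held with only the groups compared and without the least typical library of each group (adjusted p = 0.101 and 0.0609, edgeR). On a cpd root the change with a cpd shoot, from 479 ± 70.9 CPM, was -0.38 ± 0.14 and did not pass (adjusted p = 0.123, edgeR). The shoot effects on the 2 roots differed by 0.09 ± 0.20 (adjusted p = 0.821, edgeR), with a 95% interval of -0.33 to 0.51.

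PIP1-2, a known carrier of hydrostatic water flow in Arabidopsis roots, was called in a different comparison, the shoot genotype on a cpd root. Its levels in WT/cpd were 1036, 1401, 1291, 949 and 1201 CPM. In cpd/cpd they were 813, 888, 830, 1061 and 753 CPM. All libraries of cpd/cpd but replicate 4 were below the lowest of WT/cpd. The means were 1175 ± 184 and 869 ± 118 CPM (SD, n = 5), and the log2 fold change was -0.44 ± 0.12 (SE, adjusted p = 0.0428, edgeR). The call was lost without any of 7 single libraries, replicates 2, 3 and 5 of WT/cpd and 1, 2, 3 and 5 of cpd/cpd (adjusted p from 0.0653 to 0.104, edgeR). It was also lost with no filter on low counts, with replicate number as a block and with only the groups compared (adjusted p = 0.0505, 0.0787 and 0.0827, edgeR). In WT/WT the levels were 1120, 1289, 1081, 977 and 1126 CPM. In cpd/WT they were 1121, 862, 1129, 896 and 874 CPM. These groups overlapped, and on a WT root the change of -0.20 ± 0.12 did not pass (adjusted p = 0.323, edgeR).

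PIP2-2, known in Arabidopsis for water transport through cortex cells, was below every library with a WT shoot in all of cpd/cpd. Its levels were 534, 598, 491, 546 and 565 CPM in WT/WT. They were 516, 587, 557, 474 and 540 CPM in WT/cpd. They were 505, 395, 591, 447 and 383 CPM in cpd/WT. In cpd/cpd they were 429, 463, 444, 443 and 426 CPM. Its log2 fold change with a cpd shoot was -0.24 ± 0.10 on a WT root and -0.28 ± 0.10 on a cpd root, and neither passed (adjusted p = 0.136 and 0.111, edgeR). Between whole grafts it was -0.31 ± 0.10 (adjusted p = 0.0645, edgeR), which DESeq2 and limma-voom called (adjusted p = 0.0200 and 0.00907).

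PIP2-3, its near copy, is known in Arabidopsis as a desiccation-responsive gene. Its levels were 185, 215, 183, 132 and 163 CPM in WT/WT. They were 148, 204, 221, 130.24 and 214 CPM in WT/cpd. They were 124.7, 91.8, 130.06, 116 and 117 CPM in cpd/WT, all below the WT-shoot libraries, although the highest was only just below the lowest of WT/cpd. In cpd/cpd they were 98.1, 99.6, 104, 171 and 109 CPM, so that replicate 4 stood alone among the libraries with a cpd shoot. PIP2-3 fell with a cpd shoot by 0.60 ± 0.17 on a WT root and by 0.66 ± 0.17 on a cpd root on the log2 scale (adjusted p = 0.0350 and 0.0333, edgeR). The first call was lost without any of 8 single libraries and the second without any of 6, replicates 3 and 5 of WT/cpd and 1, 2, 3 and 5 of cpd/cpd (adjusted p up to 0.0906, edgeR). For the first these were replicates 1, 2, 3 and 5 of WT/WT and 1, 2, 4 and 5 of cpd/WT. PIP2-3 was also called lower between whole grafts. That call was lost without any of 11 single libraries (adjusted p from 0.0518 to 0.115, edgeR) and in 3 other settings (adjusted p from 0.0570 to 0.0829, edgeR). PIP2-6 and PIP2-8, the remaining PIP2 genes, were at means of 7.12 to 9.97 and 11.1 to 14.3 CPM and edgeR called them in no comparison.

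The other 5 genes were called by edgeR in none of the 6 comparisons. PIP2-1, the most abundant PIP2 gene and a water channel of root hydraulics and lateral root emergence in Arabidopsis, had means of 1121 ± 148, 1089 ± 177, 1092 ± 174 and 931.6 ± 126 CPM (SD, n = 5) in WT/WT, in WT/cpd, then cpd/WT, then cpd/cpd. PIP1-3 had 832 ± 18.5, 733 ± 87.9, 703 ± 66.6 and 803 ± 118 CPM in the same order. PIP1-4 was the steadiest, at 122 to 130 CPM on average, and its log2 fold changes lay between -0.09 and 0.00 in the 5 comparisons of 2 groups. PIP1-5 had means from 139 to 169.5 CPM and PIP2-4 from 51.8 to 70.5 CPM, and their libraries overlapped between all groups.

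Read comparison by comparison, a cpd root under a WT shoot changed 1 of the 10 PIP genes, PIP2-7, which fell. Of all genes tested, 9.45% were called in that comparison, 6.19% higher and 3.26% lower. The log2 fold change was negative for 8 of the 10, with a median of -0.12 against -0.01 over all genes. In the same comparison 6 of 9 endodermis markers fell and 3 of 12 shoot-tissue markers rose, with the summed levels given above, and their part in the PIP2-7 difference was not tested.

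A cpd root under a cpd shoot changed 0 of the 10 by edgeR's quasi-likelihood test, where 1.86% of all genes were called and 1.04% were called lower, and 0 of the 10 had an unadjusted p under 0.05. DESeq2 called 0 and limma-voom called 1, PIP2-1, at a log2 fold change of -0.29 (adjusted p = 0.0331). PIP2-1 was also called by edgeR without the least typical library of each group (-0.37, adjusted p = 0.0362). The median log2 fold change of the 10 was -0.11 against 0.02 over all genes. None of the shoot-tissue or endodermis markers was called here.

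A cpd shoot on a WT root changed 3 of the 10: PIP1-1 and PIP2-7 fell and PIP2-5 rose. Over all genes 9.11% were called, 6.21% higher and 2.9% lower. The median of the 10 was -0.12 on the log2 scale against -0.01 over all genes, and 7 were negative. Here 7 of 12 shoot-tissue markers rose and 1 of 9 endodermis markers fell. Of 6 stele markers, 4 were negative and 2 positive, and 1 was called, the phloem gene SUC2, which fell by 0.57 ± 0.14 (adjusted p = 0.0196, edgeR). The part of these markers in the PIP differences was not tested.

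A cpd shoot on a cpd root changed 1 of the 10, PIP1-2, which fell, where 4.66% of all genes were called, 1.42% higher and 3.25% lower. The median of the 10 was 0.07 against 0.02 over all genes, with 6 positive. None of the 12 shoot-tissue or 9 endodermis markers was called. Between whole grafts 2 of the 10 were called, PIP2-5 higher and PIP1-1 lower, where 6.36% of all genes were called, 3.72% higher and 2.63% lower, and 9 of the 10 were negative with a median of -0.16 against 0.01. In that comparison DESeq2 called 4 of the 10 and limma-voom 5, adding PIP1-2 and PIP2-2, and limma-voom also PIP2-1, all lower. There 3 shoot-tissue markers rose and 4 of 9 endodermis markers fell, with 7 of the 9 negative and 2 positive. All 6 stele markers were negative and 1 was called, SUC2, which fell by 0.55 ± 0.14 (adjusted p = 0.0282, edgeR). The part of these markers was not tested.

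**Figure D3:**
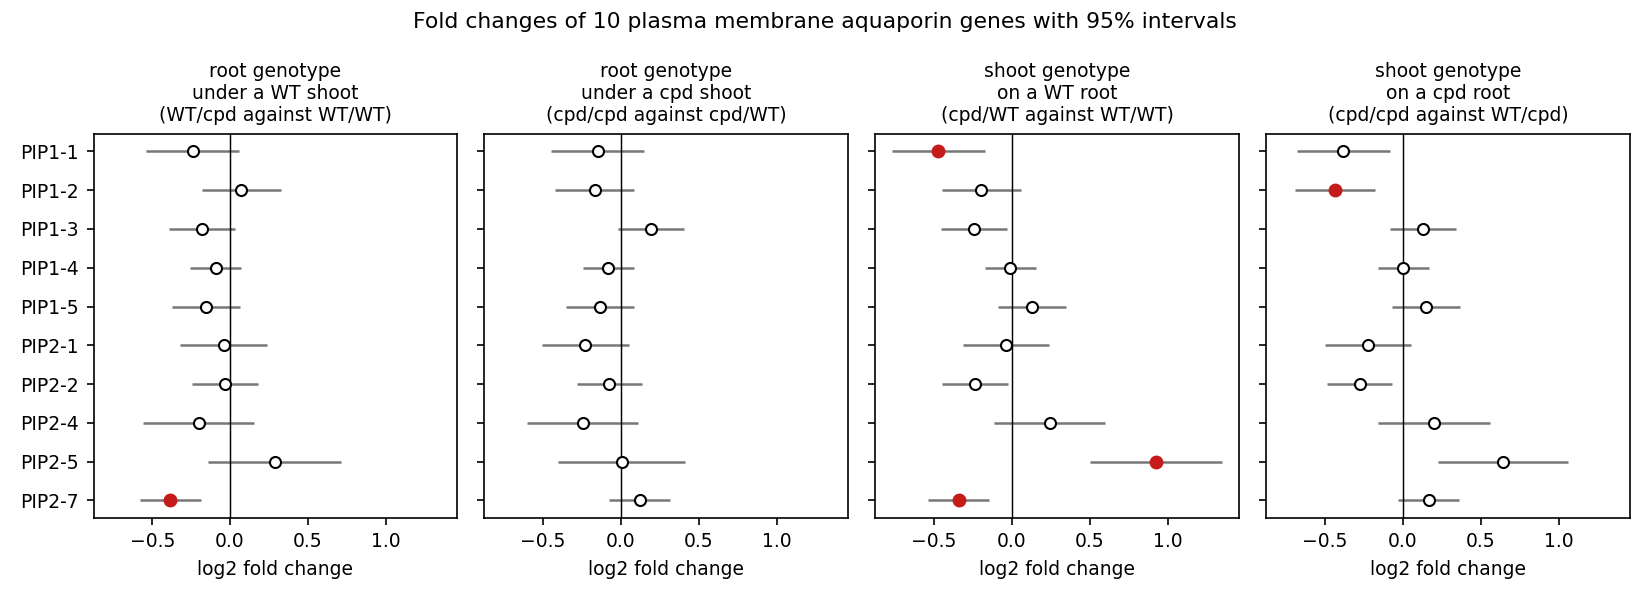
Log2 fold change of each of the 10 PIP genes with its 95% interval in the 4 comparisons that change the shoot or the root genotype alone; filled red points were called at an adjusted p under 0.05. PIP2-5 lies furthest right under a cpd shoot, at 0.93 on a WT root, while its interval spans 0 in both comparisons of root genotype.

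Averages over the other organ's genotype, added after the values had been seen, use all 20 libraries for each gene. A cpd shoot, averaged over both roots, changed 4 of the 10, where 5.8% of all genes were called, 3.5% higher and 2.3% lower. PIP2-5 rose by 0.79 ± 0.14 on the log2 scale (SE, adjusted p = 0.00286, edgeR). PIP1-1 fell by 0.43 ± 0.10, PIP1-2 by 0.32 ± 0.08 and PIP2-2 by 0.26 ± 0.07 (adjusted p = 0.0160, 0.0334 and 0.0354, edgeR). PIP2-3, outside the 10, fell by 0.63 ± 0.12 (adjusted p = 0.00508, edgeR). The calls of PIP1-2 and PIP2-2 were each lost in 14 of 27 alternative settings (adjusted p up to 0.0618 for PIP1-2 and 0.074 for PIP2-2, edgeR). Of these settings, 12 or more left out a single library, from all 4 groups. The calls of PIP1-1, PIP2-5 and PIP2-3 passed in all 27. In this average 4 of 12 shoot-tissue markers rose, 1 of 6 stele markers fell and 0 of 9 endodermis markers were called, and their part was not tested.

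A cpd root, averaged over both shoots, changed 0 of the 10 by edgeR, where 4.52% of all genes were called and 2.2% were called lower, and 0 had an unadjusted p under 0.05. DESeq2 called 0, and limma-voom called 1, PIP1-5, at -0.19 (adjusted p = 0.0393). Without the least typical library of each group edgeR called PIP1-5 and PIP2-1 lower, at -0.24 and -0.27 (adjusted p = 0.0191 and 0.0264). In this average 6 of 9 endodermis markers fell, with 7 of the 9 negative and 2 positive. Of 4 root tip markers 1, PLT2, rose. The part of these markers was not tested.

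Genes that act on PIPs or on root water transport were counted from a list of 13, all of them measured. Where a cpd root replaced a WT root under a WT shoot, 2 of the 13 fell and 1 rose, where 3.26% of all genes were called lower and 6.19% higher. QSK1, a receptor-like kinase that works with SIRK1 in aquaporin phosphorylation, fell by 0.38 ± 0.07 on the log2 scale, from 109.7 ± 7.23 to 84.3 ± 6.65 CPM (adjusted p = 0.00319, edgeR). RMA1, a ubiquitin ligase of the endoplasmic reticulum, fell by 0.90 ± 0.19, from 29.5 ± 10.8 to 15.7 ± 3.09 CPM (adjusted p = 0.00735, edgeR). XND1, a NAC transcription factor that lowers root hydraulic conductivity in Arabidopsis, rose by 0.77 ± 0.24, from 2.29 ± 0.480 to 3.96 ± 1.78 CPM (adjusted p = 0.0481, edgeR), and it lost its call without any single library other than replicate 2 of WT/WT, 2 or 5 of WT/cpd, or 4 of cpd/cpd (adjusted p up to 0.165, edgeR). QSK1 also fell between whole grafts, by 0.43 ± 0.07 (adjusted p = 0.00188, edgeR), as the only one of the 13 called there. In the other 3 comparisons of groups 0 of the 13 were called.

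Of 12 genes of the NIP and SIP aquaporin branches, 10 could be tested. SIP1-2, of a small branch found in the endoplasmic reticulum, fell by 0.56 ± 0.16 in cpd roots under a WT shoot (adjusted p = 0.0298, edgeR), a call lost without any of 5 single libraries, replicates 1 and 5 of WT/WT and 1, 3 and 4 of WT/cpd. NIP1-2 fell by 0.53 ± 0.15 between whole grafts (adjusted p = 0.0450, edgeR), a call lost without any of 11 single libraries, replicates 1, 2, 4 and 5 of WT/WT, 4 and 5 of cpd/WT and all 5 of cpd/cpd. Of the vacuolar aquaporins, which carry water across the membrane of the vacuole, 6 were tested. With a cpd shoot on a WT root 3 of the 6 fell, TIP1-1, TIP2-2 and TIP2-3, where 2.9% of all genes were called lower. The same 3 fell between whole grafts, where 2.63% of all genes were called lower. There the TIP2-3 call was lost without any of 4 single libraries, replicates 2 and 5 of WT/WT and 3 and 5 of cpd/cpd (adjusted p from 0.0513 to 0.0603, edgeR). TIP2-2 also fell with a cpd shoot on a cpd root. In cpd roots under a WT shoot TIP1-1 was lower, with a log2 change of -0.35 ± 0.09 (adjusted p = 0.0240, edgeR). Leaving out any of 4 single libraries lost that TIP1-1 call (adjusted p from 0.0503 to 0.0769, edgeR). These were replicate 2 of WT/WT and replicates 1, 3 and 4 of WT/cpd.

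Within groups, several PIP genes moved together from library to library. Deviations of log2 CPM from the group mean were correlated over the 20 libraries for all 45 pairs of the 10 genes, and 11 pairs passed at an adjusted p under 0.05 over the 45 (permutation of libraries within groups, two-sided), 8 positive and 3 negative. By rank correlation 8 of these 11 also passed. Pairs of other genes were not correlated in this way, so whether such counts are particular to PIP genes was not tested. PIP1-2 and PIP2-1 were the closest pair, with r = 0.97 and rho = 0.97 (permutation adjusted p = 0.00045 for both, raw p = 1e-05, the smallest that 100000 permutations can give), and r was 0.96 without the 2 libraries farthest out. PIP1-1 and PIP2-2 had r = 0.92 and rho = 0.89 (permutation p = 4e-05 and 9e-05, adjusted p = 0.00075 and 0.00135), and r was 0.86 without 2 libraries. These 4 genes were positively correlated in every pairing, with r from 0.71 to 0.97.

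The negative pairs joined PIP2-7 to PIP2-1 and PIP1-2, and PIP2-5 to PIP1-5. PIP1-2 and PIP2-7 had r = -0.60 and rho = -0.58 (permutation p = 0.00543 and 0.0120, adjusted p = 0.0271 and 0.0541) and so did not pass by rank, nor did the positive pairs of PIP1-5 with PIP1-1 and PIP1-2 (permutation adjusted p = 0.0569 for both). PIP1-5 and PIP2-5 had r = -0.75 and rho = -0.79 (permutation p = 0.00038 and 0.00016, adjusted p = 0.00285 and 0.00144), and r was -0.63 without 2 libraries. PIP2-1 and PIP2-7 had r = -0.68 and rho = -0.62 (permutation p = 0.00167 and 0.00773, adjusted p = 0.00939 and 0.0435), and r was -0.58 without 2 libraries. The values of a library share its depth and scaling, and what varied between the pools of roots is not recorded in the labels.

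**Figure D4:**
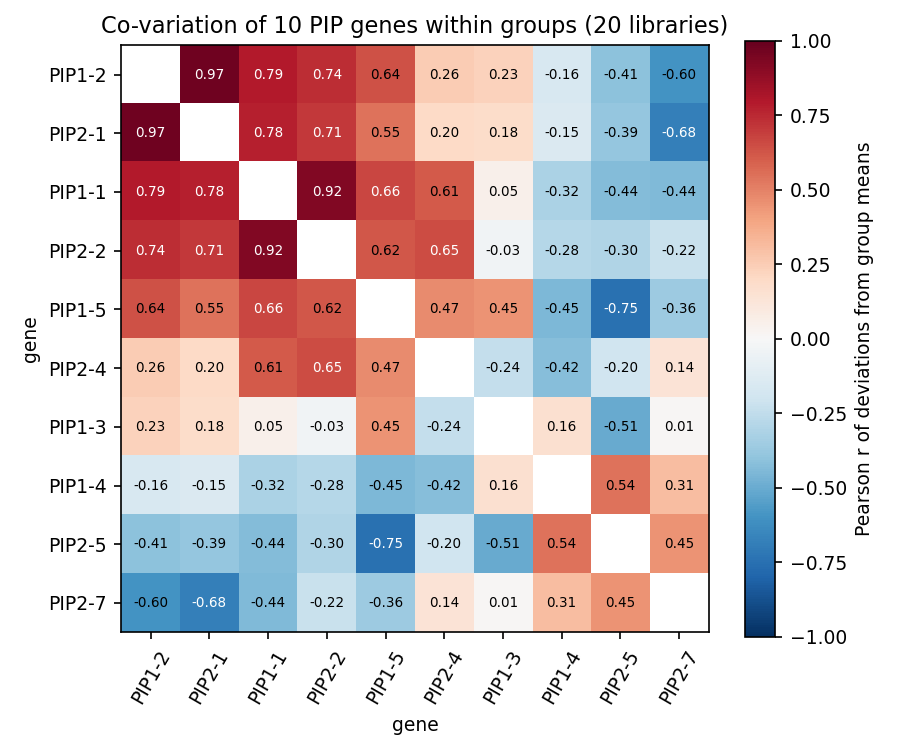
Pearson correlation (colour and number, from -1 to 1) between the 10 PIP genes, computed on deviations of log2 CPM from the group mean over 20 libraries. PIP1-2, PIP2-1, PIP1-1 and PIP2-2 form a block with r from 0.71 to 0.97, and PIP2-7 and PIP2-5 are negative against each of these 4.

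The genes whose profile over the 20 libraries was most like the mean of the 10 PIP genes were sought among 14494 genes whose log2 CPM averaged 3 or more. They were MYB92 (Pearson r = 0.83, Spearman rho = 0.81), a MYB transcription factor of suberin formation, TOM2A (0.83 and 0.82), a tetraspanin-like membrane protein, and NPSN13 (0.83 and 0.84), a SNARE protein. MYB92 had means of 27.9 CPM in WT/WT, 19.8 in WT/cpd, 23.7 in the reverse graft and 19.9 in cpd/cpd. For PIP2-5 they were SERPIN1 (0.92 and 0.92), a protease inhibitor, GLX1 (0.91 and 0.90), a glyoxalase, and DHAR1 (0.91 and 0.86), a dehydroascorbate reductase. These are the highest of many correlations over libraries that share scaling and group differences, so they are given as a description with no p. DHAR1 had means of 462, 522.5, 674 and 722 CPM in the same order of groups.

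In the 250 bases before the annotated start of each of the 10 genes (TAIR10.1, both strands), the brassinosteroid response element, searched as CGTGTG and CGTGCG, occurred in 0 of 10, and in 6.71% of 27443 genes. The G-box CACGTG occurred in 0 of 10 and in 6.49% of genes. The E-box CATGTG occurred in 2 of 10, 109 bases before the start of PIP1-2 and 28 bases before that of PIP2-5, and in 11.1% of genes.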

How the data were processed

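RNA of whole grafted roots was sequenced in 20 libraries. The authors deposited raw counts per gene with no normalization. The submitters' processing notes name the aligner STAR and the build TAIR10 but no settings, and the kit is directional per the labels' protocols. All 20 columns were matched to samples by the names in the labels. Symbols matched 32548 of 32833 codes in RefSeq's TAIR10.1 table, from which sequences, exon lengths and coordinates were also read.

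The test was that of edgeR 4.0.16, run in R 4.3.3: filterByExpr by group (20862 genes left), TMM scaling, a mean per group over all 20 libraries (16 residual degrees of freedom), robust quasi-likelihood F tests, and Benjamini-Hochberg adjustment over all genes tested, with calls at 0.05. Standard errors come from the F statistics. CPM divides each count by the TMM-scaled library size. Alternatives were DESeq2 1.42.0 (size factors and Wald test), limma-voom 3.58.1, other filters, a replicate block, only the groups compared, and libraries left out. The fit was checked on simulated counts. The text names all 10 genes, the 3 further PIP genes, up to 4 of each list by adjusted p, and the 3 most similar genes. The genes and lists were chosen with earlier results of these data known. Permutation p-values used 100000 permutations. Replicate libraries all differed by more than sampling noise (chi-square per degree of freedom from 6.00 to 51.9).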

Additional observations from a re-analysis of the deposited data

Results flagged for a closer look

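The effect of a cpd root on PIP2-7 depended on the shoot. Under a WT shoot PIP2-7 was lower in cpd roots, by -0.39 on the log2 scale, and under a cpd shoot it was 0.12 higher, a change that did not pass the test. The difference between these effects was 0.51 ± 0.13 on the log2 scale (SE, adjusted p = 0.0234, edgeR's quasi-likelihood test). This difference stayed positive in all 27 alternatives, at 0.42 to 0.55. Its call was lost without replicate 1 of WT/cpd or replicate 5 of cpd/cpd (adjusted p from 0.0508 to 0.0554, edgeR). Endodermis and shoot-tissue markers also shifted in this interaction, as given above, and their part was not tested.

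PIP2-3 in cpd/cpd had 1 library apart from the rest: replicate 4 was at 171 CPM and the other 4 were at 98.1 to 108.5 CPM. Its gap to the nearest library was 0.818 of the range of the group in log2 CPM, above Dixon's critical value of 0.71 for 5 libraries at the 95% level. Without that library the log2 fold change of PIP2-3 with a cpd shoot on a cpd root was -0.84 (adjusted p = 0.00865, edgeR), against -0.66 with it. This was the only such library in 52 sets of 5, those of the 13 PIP genes in 4 groups, where chance flags about 1 in 20.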

How the results depend on the processing

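Each comparison was repeated under 28 alternatives, or 27 for the interaction and the averages, and no called PIP value changed sign. Counts are of the 10 PIP genes called. In cpd roots under a WT shoot the count was 1, was 0 with only the groups compared, and was 1 without each library in turn. In cpd roots under a cpd shoot it was 0 and became 1 with limma-voom and 1 without the least typical library of each group. For the shoot on a WT root it was 3, and 1 with the replicate block, 1 with only the groups compared, and 1 to 3 without each library in turn. For the shoot on a cpd root it was 1, and 3 with DESeq2's Wald test, 4 with limma-voom, 2 without the least typical libraries, 0 with no filter on low counts, 0 with the replicate block, 0 with only the groups compared, and 0 to 2 without each library in turn. Between whole grafts it was 2, and 4 with DESeq2, 5 with limma-voom, 5 without the least typical libraries, and 2 to 3 without each library in turn. The interaction had 1, and 0 to 1 without each library in turn. For the root averaged over both shoots it was 0, and 1 with limma-voom and 2 without the least typical libraries; for the shoot averaged over both roots it was 4, and 2 with the replicate block and 2 to 4 without each library in turn. The cause of these changes was not tested. Replicate numbers did not pair the samples: 5 of 30 same-numbered pairs had deviations correlated above 0.1 (from -0.51 to 0.43), and 1 of 20 libraries correlated best with its own number. The least typical libraries, by mean correlation with their group, were replicate 4 of WT/WT, 2 of WT/cpd, 2 of cpd/WT and 4 of cpd/cpd. Depth limits PIP2-5 most, with 82 to 504 counts per library.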
